A study of Homo sapiens with 6 samples.

Results

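The genes described here are PLAU, PLAUR, PLAT, MMP2, MMP7, MMP14, TIMP1, TIMP2 and TIMP3, which encode the activators and receptor of the plasminogen system, matrix metalloproteinases and their tissue inhibitors. They were taken by symbol, and each of the 9 matched 1 of the 60708 genes in the deposited counts, with 8 of the 9 holding enough reads to be tested. RNA was sequenced from 6 samples of Caki-1, a human clear cell kidney carcinoma line, 3 of vector control cells (VC) and 3 of VHL-KO cells. Both groups had been infected with a CRISPR lentivirus, VC with the vector alone (genotype WT) and VHL-KO with a guide against VHL, and were selected with puromycin. The knockout cells were derived as clones in 96-well plates, and which guide and how many clones gave the sequenced samples is not given in the sources used here. Nothing says that the replicates were separate cultures, so p-values measure only the spread between these samples, which may be technical, and a clone cannot be told apart from its genotype. The samples held between 22628246 and 34881739 counts on genes.

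Plasminogen is a blood protein that urokinase (PLAU) and tissue plasminogen activator (PLAT) cut into plasmin, a broad serine protease, and the urokinase receptor (PLAUR) holds this reaction at the cell surface. Plasmin and membrane-bound MMP14 activate other matrix metalloproteinases, which cut collagens, laminins and further matrix proteins, and TIMP proteins bind and block their active sites. These genes are widely studied in kidney carcinoma, where loss of VHL stabilizes the HIF transcription factors.

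The edited gene was examined first. VHL stood at 42.6, 37.8 and 40.1 CPM (counts scaled for depth with TMM factors, which correct for composition) in VC replicates 1 to 3 and at 34.8, 30.4 and 30.5 CPM in VHL-KO replicates 1 to 3. The VHL-KO samples were lower without overlap, with a log2 fold change of -0.33 (SE 0.11, adjusted p = 0.0109 by edgeR, 3 of 3 samples lower). This call was lost without VC replicate 1 (adjusted p = 0.0862 by edgeR), without VHL-KO replicate 2 (0.0621), with upper quartile factors (0.0905) and with offsets for GC content and transcript length (log2 fold change -0.03, adjusted p = 0.78; alternatives spanned 0.000293 to 0.78). A small edit in the coding sequence need not alter the amount of mRNA, so the VHL count does not test the edit. HIF target genes give a second view of the labels. Of 12 such genes, all were tested, 11 rose and 1 fell, where 28.5% of all tested genes were called higher and 31.2% lower, with a median log2 fold change of 1.60 against -0.01 over all tested genes. The gene that fell was EGLN3, named after its values were seen, with VC counts of 69, 41 and 67 against VHL-KO counts of 10, 20 and 19 (log2 fold change -1.26). NDRG1 went from 11.7 ± 0.481 CPM in VC to 761 ± 28.5 in VHL-KO samples (SD, n = 3 each), and ADM, VEGFA and PFKFB4 had log2 fold changes of 3.55, 2.48 and 2.42. CA9 passed the filter on reads only through VHL-KO samples; with 10 reads required in every sample, 11 of these genes were tested, 10 rose and 1 fell, with a median of 1.26. CA9, the cell-surface carbonic anhydrase used as a marker of HIF activity, had 2 counts in all VC samples together and 768 in VHL-KO, a ratio of 562 (95% counting interval 155 to 4646, exact binomial). Both VC counts of CA9 were in VC replicate 3, and without that sample the fitted log2 fold change went from 8.85 to 11.21, a value against 0 counts that is no bound.

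Markers fixed for other cell types were read beside the proteases, since fibroblasts, endothelium and leukocytes also make them. Of 11 markers of kidney tubule or clear cell carcinoma epithelium, 10 were tested and PAX2 had no count; their summed level was 2028, 2216 and 1956 CPM in VC and 2724, 2633 and 2682 CPM in VHL-KO samples, with KRT8 the most abundant. Of 7 fibroblast markers, COL3A1 and LUM had no count in any sample, and the sum was 43.3, 47.3 and 37.2 CPM in VC and 30.0, 27.2 and 25.5 CPM in VHL-KO samples, most of it from COL1A1. PDGFRB of this list, named after its values were seen, fell as well. It stood at 8.26, 10.7 and 7.72 CPM in VC and 2.06, 2.32 and 2.58 CPM in VHL-KO samples. The 5 endothelial markers summed to 0.234, 0.168 and 0.237 CPM in VC and 0.711, 0.324 and 0.469 CPM in VHL-KO samples, with TEK at 0. PECAM1 was the most abundant in VHL-KO samples, with VC counts of 1, 5 and 0 against VHL-KO counts of 14, 7 and 9, and KDR in VC, with VC counts of 4, 0 and 9 against none in VHL-KO. The 7 leukocyte markers summed to 2.26, 2.69 and 1.90 CPM in VC and 4.45, 5.79 and 4.22 CPM in VHL-KO samples, with CD14 the most abundant and CD3E at 0. These sums follow their most abundant genes: CSF1R of the leukocyte list, named after its values were seen, had VC counts of 18, 27 and 20 against VHL-KO counts of 0, 6 and 5. Likewise, of the epithelial list, EPCAM had VC counts of 56, 31 and 50 against VHL-KO counts of 17, 14 and 4, and LHX1 stood at 56.0, 57.6 and 52.4 CPM in VC and 15.9, 18.6 and 17.6 CPM in VHL-KO samples. CA12 of the same list went the other way, from 3.84, 4.21 and 4.32 CPM in VC to 63.3, 63.7 and 63.2 CPM in VHL-KO samples. All samples were of the Caki-1 line, so these levels describe cells of that line and not a mix of tissue cell types. Within the line, fewer cells that express a gene and less RNA per cell cannot be told apart in bulk samples.

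Across all tested genes, 10394 of 17401 (59.7%) passed an adjusted p of 0.05, 28.5% higher and 31.2% lower in VHL-KO samples. Of the 9 genes described here, 6 passed, 3 higher (MMP7, TIMP1 and TIMP2) and 3 lower (PLAU, MMP2 and MMP14), 2 were tested and did not pass (PLAUR and PLAT), and TIMP3 was not tested. Groups did not overlap in 6 of the 8 tested members, against 64.7% of all tested genes. With shares this high over the whole table, the count is not a result about these genes, and the sizes of their differences are given below. MMP2 passed the filter on reads only through VC, where it is high, so the filter itself favoured a difference. The median log2 fold change of the 8 tested members was -0.04, beside -0.01 for all tested genes, and it was -0.04 as well with MMP2 at its count ratio. With 10 reads required in every sample, 7 members were tested, 3 rose and 2 fell, with a median of 0.03. Without VC replicate 2 the median was 0.04. It was 0.07 with upper quartile factors, -0.23 with library size alone and -0.21 with offsets for GC content and length. Scaling shifted these values as a whole: library size alone put the median of all tested genes at -0.20, with 35.8% of called genes higher, and upper quartile factors put it at 0.10, with 55% higher, beside 47.7% with TMM factors.

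**Figure D1:**
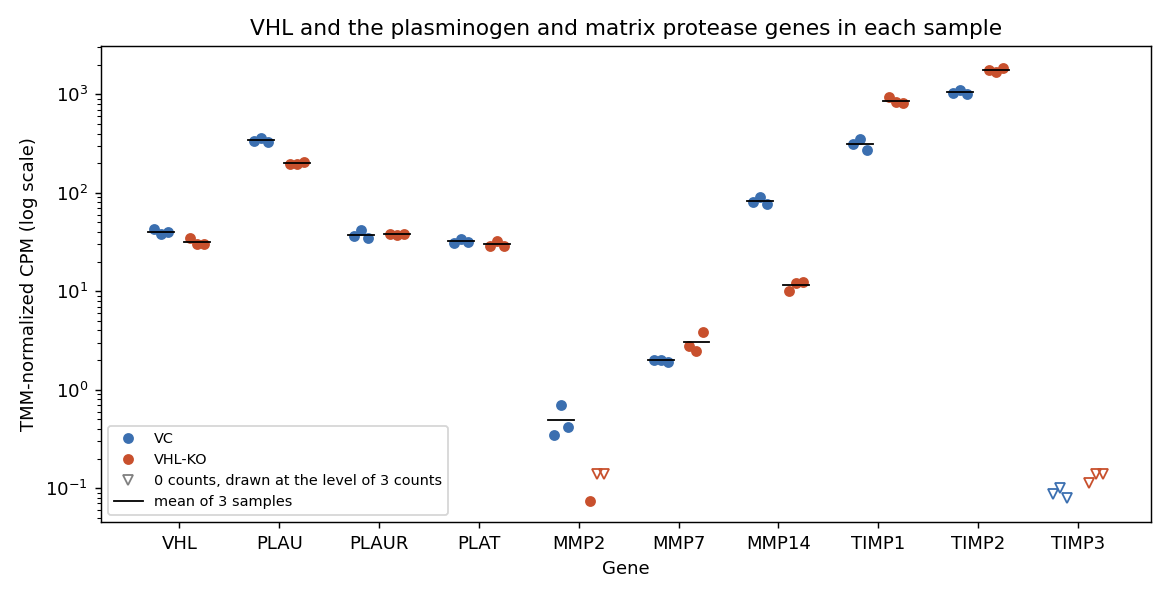
TMM-normalized CPM (log scale) of VHL and the 9 genes in each of 3 VC and 3 VHL-KO samples, with bars at the means where no sample is at 0 and open triangles at the level of 3 counts where a sample had none. MMP14 lies between 77.5 and 91.2 CPM in VC and between 10.0 and 12.3 CPM in VHL-KO samples, and TIMP3 has no count.

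Levels of different genes were compared as CPM per kilobase of exon. In VC samples the order was TIMP1 (216 ± 29.3), TIMP2 (169.9 ± 6.67), PLAU (116 ± 5.64), MMP14 (17.9 ± 1.58), PLAUR (8.46 ± 0.815), PLAT (4.13 ± 0.221), MMP7 (0.857 ± 0.0242) and MMP2 (0.105 ± 0.0400) (mean ± SD, n = 3). In VHL-KO samples it was TIMP1 (599 ± 45.4), TIMP2 (286 ± 14.0), PLAU (68.3 ± 1.96), PLAUR (8.47 ± 0.187), PLAT (3.89 ± 0.278), MMP14 (2.48 ± 0.279), MMP7 (1.31 ± 0.326) and MMP2. The order depends on the length used. Per kilobase of the canonical transcript, a choice made after the data were seen, PLAUR (27.6 ± 2.66) was above MMP14 (22.4 ± 1.98) in VC as well, and in VHL-KO samples MMP14 (3.10 ± 0.348) and MMP7 (2.72 ± 0.675) lay within their SDs. By either length MMP14 was above PLAT in VC and below it in VHL-KO samples. Among 17355 tested genes with an annotated exon length, TIMP1 ranked 150 in VC and 67 in VHL-KO samples, TIMP2 ranked 194 and 143, PLAU ranked 299 and 629, and MMP14 ranked 2237 and 7483.

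PLAU encodes urokinase, the activator that works mainly at the cell surface. It lies on chromosome 10 of GRCh38 from 73909177 to 73917496 on the + strand. Its level was 337, 359.6 and 327 CPM in VC replicates 1 to 3 and 198, 198 and 208 CPM in VHL-KO replicates 1 to 3. Every VHL-KO sample was below every VC sample, and the mean was 1.70-fold lower, a log2 fold change of -0.76 (SE 0.09, adjusted p = 4.4e-08 by edgeR). Exons of C10orf55 on the opposite strand overlap 31.0% of its exonic bases, and since the strand setting of the counting is not stated, reads of the pair cannot be fully told apart. C10orf55 itself had VC counts of 95, 90 and 100 against VHL-KO counts of 34, 33 and 36.

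PLAUR, the urokinase receptor, gave a different picture. It lies on chromosome 19 from 43646095 to 43670547 on the − strand. Its level was 36.3, 41.8 and 35.0 CPM in VC and 37.8, 36.9 and 38.6 CPM in VHL-KO samples. The groups overlapped, and the log2 fold change was 0.00 with a 95% interval of -0.22 to 0.22 (adjusted p = 0.986 by edgeR). With offsets for GC content and length it was called lower, at -0.40 (adjusted p = 8.2e-05 by edgeR; alternatives spanned 4.1e-05 to 0.967), so that its direction was not settled by these data.

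PLAT encodes tissue plasminogen activator, the activator best known from clot breakdown. Its level was 30.8, 34.0 and 31.5 CPM in VC and 29.0, 32.7 and 29.0 CPM in VHL-KO samples. These groups overlapped as well, with a log2 fold change of -0.09 and a 95% interval of -0.31 to 0.14 (adjusted p = 0.518 by edgeR). Library size alone gave a call, at -0.28 (adjusted p = 0.0351 by edgeR), and upper quartile factors gave 0.03 (alternatives spanned 0.0351 to 0.862).

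MMP14 is the membrane-bound collagenase that activates MMP2 at the cell surface, and it had the largest well-measured difference of the 9. It lies on chromosome 14 from 22836560 to 22849041 on the + strand. Its level was 80.0, 91.2 and 77.5 CPM in VC and 10.0, 12.1 and 12.3 CPM in VHL-KO samples. All 3 VHL-KO samples were far below the lowest VC sample. The mean was 7.24-fold lower, a log2 fold change of -2.86 (SE 0.12, adjusted p = 8.6e-16 by edgeR), and it lay between -3.05 and -2.75 over the alternatives.

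MMP2, the gelatinase that MMP14 activates, was close to the limit of detection. It lies on chromosome 16 from 55389700 to 55506691 on the + strand. It had VC counts of 12, 21 and 16 against VHL-KO counts of 2, 0 and 0. Summed over samples and scaled for depth, the VC counts exceeded those of VHL-KO by a ratio of 16.7, with a 95% counting interval of 4.4 to 142 (exact binomial; such intervals and the floors given for counts of 0 cover counting error only). The adjusted p was 0.00113 by edgeR, and with at least 10 reads required in every sample the gene was not tested. The 2 VHL-KO counts were in replicate 1. Without that sample the fitted log2 fold change went from -3.92 to -6.83, a value against 0 counts that is no bound. It was -3.44 without VHL-KO replicate 2 or 3.

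MMP7 encodes matrilysin, a small metalloproteinase of epithelial cells. It lies on chromosome 11 from 102520508 to 102530750 on the − strand. Its level was 2.02, 2.02 and 1.92 CPM in VC and 2.77, 2.46 and 3.89 CPM in VHL-KO samples. The groups did not overlap, and VHL-KO replicate 3 stood above the other samples. The log2 fold change was 0.61 (SE 0.24, adjusted p = 0.0301 by edgeR), but the call was lost in 5 of 15 alternatives. These were the fits without VHL-KO replicate 3 (0.40, adjusted p = 0.164 by edgeR), without VC replicate 1 (0.63, adjusted p = 0.07), without VC replicate 3 (0.60, adjusted p = 0.0608), with library size alone (0.42, adjusted p = 0.137) and with no filter beyond 1 count (0.57, adjusted p = 0.0603), in a range of 0.0106 to 0.164 overall.

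TIMP1 is a secreted inhibitor of most matrix metalloproteinases. It lies on chromosome X from 47582408 to 47586789 on the + strand. Its level was 312, 356 and 271 CPM in VC and 940.5, 841 and 817 CPM in VHL-KO samples. Every VHL-KO sample exceeded every VC sample. The mean was 2.77-fold higher, a log2 fold change of 1.47 (SE 0.10, adjusted p = 6.1e-12 by edgeR). With offsets for GC content and length the log2 fold change was 0.83 (adjusted p = 5.0e-11 by edgeR; alternatives spanned 1.8e-58 to 1.6e-09), and each of the 15 alternatives kept the gene higher.

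TIMP2, which both inhibits metalloproteinases and takes part in the activation of MMP2 by MMP14, is annotated on chromosome 17 from 78852977 to 78925387 on the − strand. Its level was 1044, 1101 and 1019.9 CPM in VC and 1768, 1698 and 1871 CPM in VHL-KO samples. No sample of the lower group reached the higher one, and the log2 fold change was 0.75 (SE 0.08, adjusted p = 2.9e-08 by edgeR, 1.69-fold higher). Over the alternatives it lay between 0.56 and 0.87. Other annotated genes overlap 3.6% of its exonic bases on the same strand and 5.9% on the opposite strand.

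TIMP3, the inhibitor that stays bound to the matrix, had 0 counts in all 6 samples. It is annotated on chromosome 22 from 32801705 to 32863041 on the + strand, with no exonic overlap with another gene. With 0 observed, a true mean of 3 counts is still possible, which is 0.079 CPM in the deepest and 0.141 CPM in the shallowest sample, so its mRNA was not detectable at this depth.

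**Figure D2:**
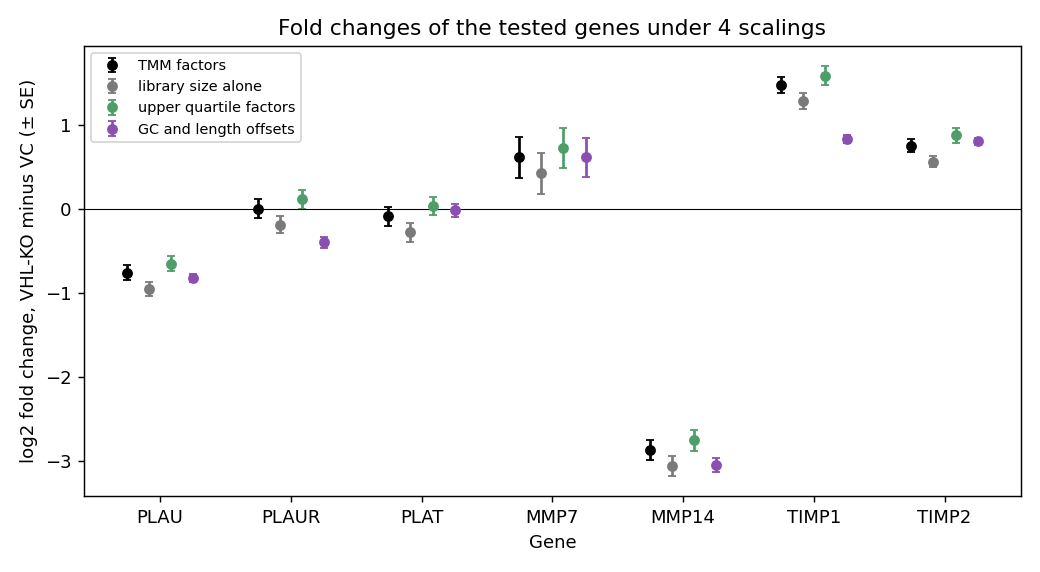
Log2 fold changes (VHL-KO minus VC, bars ± SE) of 7 tested genes with TMM factors, library size alone, upper quartile factors, and GC and length offsets; MMP2, with 2 counts in VHL-KO samples, is left out. PLAU and MMP14 are below 0 and MMP7, TIMP1 and TIMP2 above 0 under each of the 4, whereas PLAUR lies between -0.40 and 0.11 and PLAT between -0.28 and 0.03.

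Promoter sequences are shown for PLAU and MMP14, which fell, and for MMP7 and TIMP1, which rose, to show examples from both directions. The RefSeq promoters used (GRCh38.p14) hold 6 of the 9 genes, and no entry for PLAT, MMP2 and TIMP2; of 2 entries for PLAU, the one nearer its canonical start was taken. The 250 bases before the start are printed 5′ to 3′ along the gene, with capitals at matches, on either strand, to the AP-1 motif TGANTCA and to the HIF core motifs ACGTG and GCGTG. PLAU is chr10:73910882-73911131 (+ strand), MMP14 is chr14:22836335-22836584 (+ strand), MMP7 is chr11:102530748-102530997 (− strand) and TIMP1 is chrX:47582186-47582435 (+ strand).
PLAU: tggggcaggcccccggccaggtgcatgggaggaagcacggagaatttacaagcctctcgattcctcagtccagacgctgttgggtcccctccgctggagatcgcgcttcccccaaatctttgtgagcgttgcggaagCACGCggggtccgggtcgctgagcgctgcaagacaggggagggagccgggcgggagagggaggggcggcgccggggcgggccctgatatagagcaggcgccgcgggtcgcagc
MMP14: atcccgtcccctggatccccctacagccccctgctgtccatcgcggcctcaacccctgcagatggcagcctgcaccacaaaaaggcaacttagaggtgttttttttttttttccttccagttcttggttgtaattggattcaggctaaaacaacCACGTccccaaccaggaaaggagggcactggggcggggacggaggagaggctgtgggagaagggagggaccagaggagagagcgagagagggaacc
MMP7: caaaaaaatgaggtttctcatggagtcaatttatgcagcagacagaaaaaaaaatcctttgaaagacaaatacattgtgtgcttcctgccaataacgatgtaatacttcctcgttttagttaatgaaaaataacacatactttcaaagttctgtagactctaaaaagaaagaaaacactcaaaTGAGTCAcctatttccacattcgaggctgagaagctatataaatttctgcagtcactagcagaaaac
TIMP1: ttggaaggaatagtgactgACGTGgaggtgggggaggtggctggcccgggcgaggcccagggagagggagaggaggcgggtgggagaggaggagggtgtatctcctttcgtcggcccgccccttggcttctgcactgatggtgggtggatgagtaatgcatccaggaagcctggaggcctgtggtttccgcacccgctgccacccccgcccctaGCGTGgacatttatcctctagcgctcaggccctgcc
Of the 35116 promoters of this length, 6.57% hold TGANTCA, 18.5% ACGTG, 32.2% GCGTG, 42.6% the Sp1 box GGGCGG and 10.7% TATAAA. MMP7 has 1 match to TGANTCA, starting 67 bases before the start site, and 1 to TATAAA at 30 bases. MMP14 has 1 match to ACGTG at 96 bases and 1 to GGGCGG. In the TIMP1 window there is 1 match to ACGTG at 231 bases, 1 to GCGTG at 36 bases and 2 to GGGCGG. PLAU has 1 match to GCGTG at 113 bases and 3 to GGGCGG. A match is a description of letters, and the GC content of these windows was 68.8% for PLAU, 56.8% for MMP14, 33.6% for MMP7 and 64.8% for TIMP1. Of the remaining promoters, PLAUR had 1 match to TGANTCA and 1 to GCGTG, and TIMP3 had 1 match to GCGTG and 5 to GGGCGG.

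Ratios between partner genes were then taken within each sample, from counts per exonic length with 0.5 counts added, since such a ratio does not depend on library scaling. It can still depend on the GC content and length of each gene: with offsets for these, PLAU and PLAUR had log2 fold changes of -0.82 and -0.40, and MMP7 and TIMP1 had 0.61 and 0.83, so both pairs lie closer together than below. The log2 ratio of MMP14 to TIMP2 was -3.28, -3.17 and -3.29 in VC, against -7.04, -6.70 and -6.82 in VHL-KO samples, a difference of -3.61. For PLAU to PLAUR it was 3.81, 3.70 and 3.82 in VC, against 2.98, 3.02 and 3.03 in VHL-KO samples, a difference of -0.77. Both ratios were lower in every VHL-KO sample. MMP7 to TIMP1 was -7.94, -8.13 and -7.81 in VC, against -9.08, -9.09 and -8.39 in VHL-KO samples, a difference of -0.89. The MMP7 to TIMP1 ratio was thus lower in all 3 VHL-KO samples although MMP7 itself was not. MMP2 to TIMP2 differed by -4.47, or -3.04 with 2 counts added, because VHL-KO samples had almost no MMP2 counts. These 4 pairs each had p = 0.1 in a two-sided exact permutation test, the smallest p that 3 against 3 samples allow, and 0.15 after Benjamini-Hochberg adjustment over 6 pairs, so none passed the threshold. MMP2 to MMP14 overlapped between groups (difference -0.86, exact permutation p = 0.4, adjusted 0.48) and turned to 0.56 with 2 counts added. This difference was -1.63 without VHL-KO replicate 1 and -0.48 without VHL-KO replicate 2 or 3. MMP14 to TIMP3 was not computed, since TIMP3 had no count, and still counts among the 6; other planned pairs were not analysed here.

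**Figure D3:**
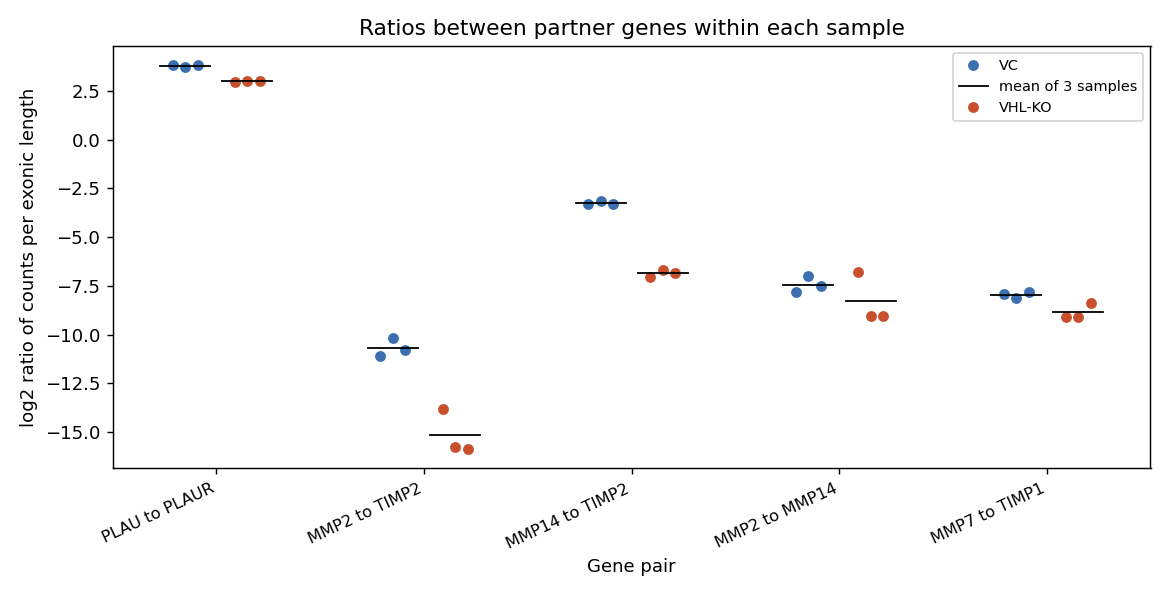
Log2 ratios of counts per exonic length for 5 gene pairs in each of 3 VC and 3 VHL-KO samples, with bars at the means. The groups are apart in 4 pairs, most of all in MMP2 to TIMP2 and MMP14 to TIMP2, and overlap in MMP2 to MMP14.

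Other genes of the plasminogen system moved in both directions. For this and the following lists, the share over all tested genes was 59.7% called, 28.5% higher and 31.2% lower. Of the 15 analysed here, 10 were tested, 5 rose, 3 fell and 2 did not pass (80.0% called), with a median log2 fold change of 0.01 that became 0.12 with upper quartile factors, -0.18 with library size alone and 0.13 with GC and length offsets. VTN, among those that rose, passed the filter only through VHL-KO samples; with 10 reads required in every sample, 9 were tested, 4 rose and 3 fell, with a median of -0.22. Plasminogen itself (PLG) had 0 counts in every sample, as had SERPINB2 and CPB2, and SERPINA5 and KLKB1 had too few reads to be tested. S100A10, a plasminogen receptor at the cell surface, stood at 300.5, 292 and 267 CPM in VC and 737, 657 and 609 CPM in VHL-KO samples, a log2 fold change of 1.22 (SE 0.09, adjusted p = 4.1e-11 by edgeR). Its partner ANXA2 differed by 0.27 on the log2 scale (adjusted p = 0.00637 by edgeR), which was 0.08 and not called with library size alone (0.342, in a range of 0.000248 to 0.342). ENO1, a glycolytic enzyme that also binds plasminogen, had 0.84, whereas the receptor PLGRKT fell by 0.64 on the log2 scale.

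Inhibitors and clearance genes of the system differed among themselves. SERPINE2, a serine protease inhibitor, fell by 0.69 on the log2 scale. LRP1, the receptor that takes up activators bound to their inhibitors, rose from 51.2 ± 7.60 to 209 ± 23.2 CPM (SD, n = 3 each), or 2.03 on the log2 scale (adjusted p = 1.2e-13 by edgeR). VTN, an adhesive protein of blood and matrix, had VC counts of 5, 0 and 1 against VHL-KO counts of 52, 29 and 32. Its fitted log2 fold change of 4.67 became 6.39 without VC replicate 1 and 4.21 without VC replicate 2. F12, a factor of the contact pathway, fell by 0.72, or by 1.26 with GC and length offsets. SERPINF2 and SERPINI1 had log2 fold changes of -0.44 and -0.25 and did not pass, and SERPINF2 was called lower, at -0.86, with GC and length offsets (adjusted p = 0.0164 by edgeR, in a range of 0.0164 to 0.43).

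Of 20 other matrix metalloproteinases, 9 were tested, 4 rose and 4 fell (88.9% called, beside 59.7% of all tested genes), with a median log2 fold change of -0.01. MMP25 and MMP28 passed the filter only through VHL-KO samples, where they are high, and with 10 reads required in every sample 5 were tested, 2 rose and 3 fell. The middle value is MMP19, which had at most 11 counts in a sample, so the median swung as replicates were left out: -0.58, 0.61 and 0.22 without VC replicate 1, 2 or 3, and 0.54, -0.60 and 0.05 for VHL-KO in the same order. It was -0.78 with 10 reads required in every sample, -0.60 with no filter beyond 1 count (14 tested), 0.10 with upper quartile factors and -0.19 with library size alone. MMP24, a membrane-type member, had the most CPM per kilobase of these 9 (18.8 in VC, 33.8 in VHL-KO samples), at 80.4, 91.9 and 75.0 CPM in VC and 139, 139 and 166 CPM in VHL-KO samples, a log2 fold change of 0.84 (SE 0.10, adjusted p = 1.2e-07 by edgeR). Exons of other genes on the opposite strand overlap 22.1% of its exonic bases, and 30.6% for MMP25, 18.4% for MMP9 and 17.6% for MMP19. With the strand setting not stated, reads of such overlapping genes cannot be fully told apart. Of the other membrane-type members, MMP25 was called higher and 3 lower: MMP17 had VC counts of 111, 140 and 128 against VHL-KO counts of 19, 9 and 12 (log2 fold change -2.71), and MMP15 and MMP16 had -0.81 and -0.92. MMP28 had VC counts of 6, 3 and 1 against VHL-KO counts of 26, 34 and 17. MMP9, a gelatinase, had VC counts of 108, 125 and 112 against VHL-KO counts of 72, 22 and 38, a log2 fold change of -0.88, and was not called without VHL-KO replicate 2 (-0.60, adjusted p = 0.0585 by edgeR, in a range of 7.9e-05 to 0.0585). MMP11 had a log2 fold change of 0.96. With GC and length offsets, MMP11 (0.54, adjusted p = 0.0596 by edgeR) and MMP16 (-0.34, adjusted p = 0.0835) were not called, in ranges of 6.6e-05 to 0.0596 and 6.7e-06 to 0.0835. MMP25, at 1.87 with 4 to 15 counts per sample, was not called with the offsets (0.0533), without VC replicate 1 (1.78, adjusted p = 0.0721 by edgeR), without VC replicate 3 (2.01, 0.0501) or without VHL-KO replicate 3 (1.60, 0.0752), in a range of 0.0106 to 0.0791. MMP19 did not pass.

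**Figure D4:**
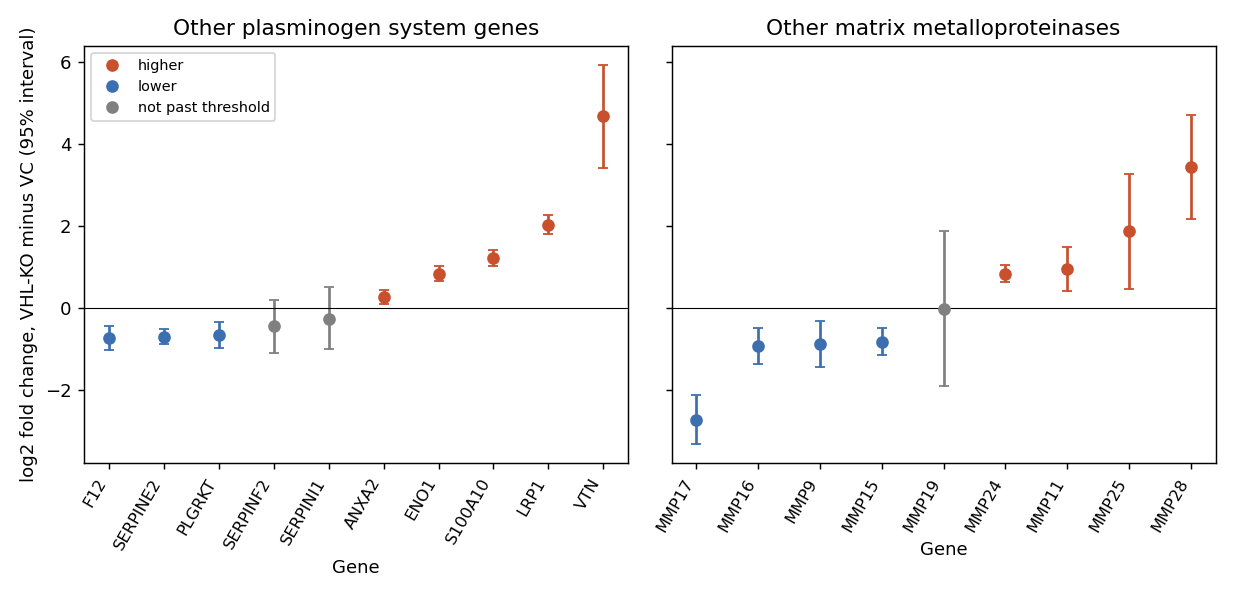
Log2 fold changes (VHL-KO minus VC) with 95% intervals of 10 tested genes of the plasminogen list and the 9 tested genes of the other metalloproteinases, colored by call. Both panels hold genes on either side of 0, from -2.71 for MMP17 to 4.67 for VTN.

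Among 3 other metalloproteinase inhibitors, TIMP4 and A2M had no count, and RECK, a membrane-anchored inhibitor, had a log2 fold change of -0.38 that did not pass (adjusted p = 0.0579 by edgeR). RECK was called lower without VC replicate 2 (-0.45, adjusted p = 0.0206 by edgeR), without VHL-KO replicate 3 (-0.52, 0.0252), with library size alone (-0.58, 0.00904) and with no filter beyond 1 count (-0.42, 0.0326), and was at 0.09 with the offsets, in a range of 0.00904 to 0.591. Of 28 ADAM and ADAMTS proteases, 20 were tested, 8 rose and 8 fell (80.0% called, beside 59.7% of all tested genes), with a median of -0.01. With library size alone 5 rose and 9 fell (median -0.20), with upper quartile factors 9 and 7 (0.11), and without VHL-KO replicate 3 they were 6 and 10. The median was -0.34 with no filter beyond 1 count and -0.27 with 10 reads required in every sample. Among those that averaged 20 normalized counts or more, ADAM8 rose from 2.82 ± 0.348 to 35.4 ± 3.37 CPM (SD, n = 3 each), ADAMTS13 and ADAMTS5 rose by 2.26 and 2.24 on the log2 scale, and ADAMTS6 and ADAM19 fell by 2.41 and 2.08. Of 11 membrane serine proteases and their inhibitors, 5 were tested, 4 rose (beside 28.5% of all tested genes) and none fell, and the median of 1.77, against -0.01 over all tested genes, was the same with ST14 at its floor bound. With 10 reads required in every sample 4 were tested and 3 rose, with a median of 1.61. DPP4 went from 28.1 ± 2.39 to 148 ± 7.89 CPM, and the inhibitors SPINT2 and SPINT1 had log2 fold changes of 1.77 and 1.39. ADAM28, ST14 and FURIN are named here after their values were seen. ADAM28 had fewer reads, with VC counts of 1, 1 and 3 against VHL-KO counts of 53, 19 and 19, and was called higher; it passed the filter only through VHL-KO samples, and its fitted change is not ranked here. ST14, a matriptase gene, had 12 counts in VHL-KO replicate 1 and 0 in the other 5 samples, so its call as higher (adjusted p = 0.0253 by edgeR) rests on that sample alone, and without it no count was left; with DESeq2 the adjusted p was 0.296, the top of its range from 0.0113. FURIN had a log2 fold change of -0.23 and did not pass (adjusted p = 0.0653 by edgeR). It was called lower without VC replicate 3 (-0.27, adjusted p = 0.0252 by edgeR), without VHL-KO replicate 3 (-0.34, 0.0162), with library size alone (-0.42, 0.00159), with no filter beyond 1 count (-0.27, 0.023) and with the offsets (-0.50, 5.4e-06), in a range of 3.6e-07 to 0.369.

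All 13 cathepsins and cystatins, proteases and their inhibitors, were tested; 8 rose, 3 fell and 2 did not pass (84.6% called, beside 59.7% of all tested genes), with a median log2 fold change of 0.57 against -0.01 over all tested genes, between 0.37 and 0.82 with the other scalings and offsets, 0.87 with 10 reads required in every sample and 0.93 without VC replicate 2. Among those that fell, CST6, named after its values were seen, had VC counts of 1, 10 and 4 against none in VHL-KO and passed the filter only through VC replicate 2; under the last 2 settings it was not tested, and 2 of 12 fell. CST6 was also not called when VHL-KO replicate 1, 2 or 3 was left out (adjusted p = 0.0698, 0.0561 and 0.0588 by edgeR, in a range of 0.00803 to 0.0698). CTSD stood at 568, 635 and 469 CPM in VC and 4352, 4115 and 3749.8 CPM in VHL-KO samples, a log2 fold change of 2.87 (SE 0.10, adjusted p = 7.5e-17 by edgeR). CTSA, CTSK and CTSB, of which CTSB can activate urokinase, had 1.84, 1.62 and 1.31. CST3, a secreted inhibitor of cathepsins, had 2.14, and 1.31 with GC and length offsets. Other annotated genes overlap 27.3% of the exonic bases of CTSD on the same strand and 23.4% on the opposite strand. For CTSA the overlap on the opposite strand is 21.5%. Reads of these overlapping genes cannot be fully told apart.

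Of 20 transcription factors and inducers known for these promoters, all were tested, 7 rose, 11 fell and 2 did not pass, where 59.7% of all tested genes were called, 28.5% higher and 31.2% lower, with a median log2 fold change of -0.58 against -0.01 over all tested genes. The median of the list was -0.39 with GC and length offsets, -0.47 with upper quartile factors and -0.77 with library size alone. FOSL1, the AP-1 subunit FRA1, stood at 544, 595 and 488 CPM in VC and 234, 221 and 249 CPM in VHL-KO samples, a log2 fold change of -1.21 (SE 0.09, adjusted p = 5.6e-11 by edgeR). ETS1 fell by 1.62 on the log2 scale, CTNNB1 fell by 1.24 and HIF1A fell by 2.35. Over the alternatives FOSL1 lay between -1.65 and -1.10, ETS1 between -1.82 and -1.16, CTNNB1 between -1.44 and -0.89 and HIF1A between -2.54 and -1.76. These are mRNA levels. For the protein, the paper reports by immunoblot that HIF1α accumulated in VHL-KO Caki-1 cells. FOSB, with 7 to 44 counts per sample, fell by 1.34. The 7 that rose are named after their values were seen: FOS rose by 1.20, JUND by 1.05, EGR1 by 0.85, JUNB by 0.74, JUN by 0.42, RELA by 0.40 and BSG, a cell-surface inducer of metalloproteinases, by 0.94. AP-1 subunits thus changed in both directions. With library size alone JUN was at 0.23 and RELA at 0.21. With GC and length offsets JUND was at 0.46, BSG at 0.44 and JUNB at 0.16, and RELA was not called (0.12, adjusted p = 0.0718 by edgeR, in a range of 2.0e-06 to 0.0727). What their levels had to do with the protease genes was not tested.

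The pattern over the 6 samples was also compared with all tested genes of at least 100 normalized counts, by Euclidean distance between log2 CPM (0.5 CPM added) centred on each gene's mean. The nearest gene was HKDC1 for PLAU (distance 0.032), KLF16 for PLAUR (0.0323), ARMH3 for PLAT (0.0674), UHRF1 for MMP14 (0.309), PTGS1 for MMP7 (0.152), RRAS for TIMP1 (0.0971) and SORCS2 for TIMP2 (0.0876). These genes were picked on the same 6 samples, so alike fold changes and alike shifts between replicates follow from the choice and are no separate result. UHRF1 had a log2 fold change of -2.77, near the -2.86 of MMP14. For MMP2 the nearest was WNK4 (0.177), although at the level of MMP2 the added 0.5 CPM shaped the pattern. PTGS1, like MMP7, lost its call without VHL-KO replicate 3 (0.33, adjusted p = 0.105 by edgeR) and with library size alone (0.37, 0.0832), in a range of 0.000111 to 0.105. RRAS, like TIMP1, had a smaller difference with GC and length offsets, at 0.68 in place of 1.44.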

How the data were processed

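RNA was sequenced by the authors from 3 VC and 3 VHL-KO samples of Caki-1. Per the labels, reads were trimmed with Trim Galore and cutadapt, aligned with STAR to GRCh38.p13, handled with SAMtools and counted per gene with HTSeq; versions, the annotation release, the strand setting and the counting mode are not stated. The deposited values are raw read counts for 60708 genes, of which 32134 had 0 counts in all samples. Totals were 31789923, 28463579 and 34881739 for VC and 29139722, 22805385 and 22628246 for VHL-KO, by replicate number, so that a count of 0 allows up to 3 counts, or 0.0879, 0.101, 0.079, 0.112, 0.139 and 0.141 CPM in that order. Samples were grouped by the authors' labels. Gene positions and exon lengths came from GENCODE release 44 and promoters from RefSeq. The members and lists were chosen with earlier results of these data known.

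The 17401 genes that reached 10 reads in some sample were tested, VHL-KO against VC, with edgeR 4.0.16 in R 4.3.3 (TMM factors, quasi-likelihood test, Benjamini-Hochberg adjustment over all tested genes, threshold 0.05). An adjusted p "by edgeR" in the text is from this test, or from its refit under the alternative named beside the value. SE is the log2 fold change divided by the root of the test's F. CPM are TMM-normalized. Ratios between 2 genes were taken per sample with 0.5 counts added and compared by exact permutation of the group labels. Counting intervals are exact binomial (scipy 1.17.1, Python 3.11.15), and figures were drawn with matplotlib 3.10.9. The test was tried on simulated data of 16676 genes for VHL-KO against VC. There it called 93% of 100 genes changed by 1 on the log2 scale and 100% of 100 changed by 2, with 6 false calls. In the deposited data 59.7% of all tested genes were called. The number of false calls where so large a share of genes differs was not tested.

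The genes named by rule are the members, VHL, the tested genes of the plasminogen and metalloproteinase lists, up to 5 called genes with the largest change of every other list among those whose normalized counts averaged 20 or more, and the nearest gene to each member. Other genes are named outside this rule, among them cell type markers and those said to be named after their values were seen. From the plasminogen list, 1 gene and the 2 planned ratios that use it were not analysed here. Alternatives were DESeq2 1.42.0, RLE factors, upper quartile factors, and library size alone for scaling, a looser filter of 1 count, a stricter one of 10 reads throughout, fits that drop 1 replicate in turn, a replicate block, spline offsets for GC content and length (5 degrees of freedom, genes of at least 20 counts) and the last 2 together. For ratios they were a pseudocount of 2, dropped replicates and the block. No deposited column was left out.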

Additional observations from a re-analysis of the deposited data

How the results depend on the processing

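For the 60 tested genes that the text names by rule, 892 fold changes were recomputed over the alternatives: 830 kept their direction and side of the threshold, 23 kept the direction but were not called, 9 kept it and became called, and 30 turned direction. PLAU (-0.95 to -0.65), MMP14 (-3.05 to -2.75), TIMP1 (0.83 to 1.59) and TIMP2 (0.56 to 0.87) were called in the same direction in 15 of 15 alternatives. MMP2 (-6.83 to -3.44) was called lower in the 14 of 14 that could test it. Its lowest value was without VHL-KO replicate 1, which held its 2 VHL-KO counts. With at least 10 reads in every sample, 52 of the 60 genes could be tested. Over all genes, between 9215 and 10501 were called.

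PLAUR turned to -0.19 with library size alone, -0.04 with no filter beyond 1 count and -0.40 with GC and length offsets, without or with a block. Leaving out 1 replicate gave PLAUR from -0.03 to 0.10, below 0 at -0.02 (VC replicate 1 dropped), -0.03 (VC replicate 3) and -0.01 (VHL-KO replicate 3). PLAT turned to 0.03 with upper quartile factors and was called at -0.28 with library size alone. MMP7 was not called with library size alone (0.42), with no filter beyond 1 count (0.57) or without VC replicate 1 (0.63), VC replicate 3 (0.60) or VHL-KO replicate 3 (0.40). VHL was not called with upper quartile factors (-0.22), with the offsets (-0.03, without or with a block), or with VC replicate 1 (-0.28) or VHL-KO replicate 2 (-0.3) dropped.

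SERPINI1 turned to 0.03 with the offsets and 0.01 with offsets and block. RECK turned to 0.09 and 0.08 in the same fits, and was called lower with a block alone (-0.39, adjusted p = 0.0305 by edgeR, in a range of 0.00904 to 0.591). MMP19, with at most 11 counts per sample, turned to 0.02 with DESeq2, 0.01 with RLE factors, 0.10 with upper quartile factors, 0.09 with a block, 0.06 with the offsets and 0.15 with both. With a replicate dropped it was 0.61 (VC replicate 2), 0.22 (VC replicate 3), 0.54 (VHL-KO replicate 1) and 0.05 (VHL-KO replicate 3), and at the lowest -0.94. KLF16 turned to -0.17 with library size alone, -0.02 with no filter beyond 1 count and without VC replicate 3, and -0.41 with the offsets, without or with a block. With the offsets KLF16 was called lower (adjusted p = 2.5e-06 by edgeR, in a range of 1.1e-06 to 0.962). ARMH3 turned to 0.01 with upper quartile factors and 0.12 with the offsets, without or with a block, and was called lower with library size alone (-0.29). The log2 ratio of MMP2 to MMP14 turned to 0.56 with 2 counts added, because VHL-KO samples had 2 counts of MMP2 in all. For the other results the cause was not tested.

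A block for replicate number gave 10284 calls, and 10454 with the offsets. Residuals of samples with the same number correlated at 0.17, -0.097 and 0.061 over 12115 genes, so the numbers were not shown to pair the samples. The ratio of MMP14 to TIMP3 could not be computed under any setting, since TIMP3 had no count, and MMP2 could not be tested with 10 reads required in every sample.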
